A study of Arabidopsis thaliana with 12 samples.

Results

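The regions described here are promoters of Arabidopsis thaliana that lost chromatin accessibility in *h3.3ko* mature seeds, that face genes on 1 strand only, and that hold a G-box, the palindrome CACGTG. A region of the decreased list was taken when its midpoint lay within 500 bp of a protein-coding transcription start site (TSS) on one strand, with none on the other, and when its sequence held at least 1 exact copy of the 6 bases. The regions were thus chosen by their fold change in this contrast, their position and their sequence. The rule gave 535 of 3278 decreased regions, out of 6714 listed regions in all, and 535 of the 1668 decreased one-strand promoters. Each has a gene of its own, the one with the nearest TSS, so that 1.95% of the 27444 protein-coding genes of the nuclear chromosomes have a member at the TSS, and 6.08% have a decreased one-strand promoter of either kind.

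The regions come from ATAC-seq, in which the transposase Tn5 inserts adapters into DNA that nucleosomes do not cover. Nuclei sorted from whole mature seeds, stored for 3 months, were compared between Col, the wild type, and *h3.3ko*, which lacks the 3 genes for histone H3.3 (*htr4* and *htr5* made by CRISPR, *htr8* a T-DNA line), with 2 libraries each. The *h3.3ko* seeds segregated from plants that carried a pHTR5::*HTR5* rescue transgene and were picked as seeds without its mCherry marker, so that their mother and seed coat were not H3.3-free, and embryo, endosperm and seed coat nuclei were not separated. Each region has 1 log2 fold change (*h3.3ko* relative to Col) by the authors and no value per library, so that neither depth nor spread between seed batches can be read from the lists. The fold changes chose the regions and are described here without a test. Region width and midpoint position, on which the rule bears, are given without a p-value. The tests reported use what the choice did not, apart from alternatives cut by the size of the change, and have regions or promoters as units. Fewer open nuclei and less opening per nucleus cannot be told apart.

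G-boxes are bound in plants by several families of transcription factors. Among them are the basic leucine zipper (bZIP) factors of abscisic acid signalling, such as *ABI5* and the ABFs, the GBF and *HY5* factors of light responses, the phytochrome-interacting bHLH factors (PIFs), *MYC2* of jasmonate signalling and the *BZR1* family of brassinosteroid signalling. The bases beside the core influence which family binds. An abscisic acid response element (ABRE) is commonly written as ACGTGGC or ACGTGTC, and a G-box whose core continues into either of these, on either strand, is called here a G-box with an ABRE-type flank.

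The 12 regions with the largest loss carried between 1 and 4 G-boxes, and the one nearest the TSS is shown for 11 of them with 12 bases on each side, to let the flanks be compared. The sequences are from TAIR10.1, 5′ to 3′ along the gene, with each complete G-box in capitals.
RAD23C, chr3:536378-536407, minus strand: aattgtcaatacCACGTGgcatattttaat
XT2, chr4:1101378-1101407, plus strand: ctagaacttcgcCACGTGtcaacaacgcta
SKP2B, chr1:28940192-28940221, plus strand: gtcagttttagaCACGTGgcagttCACGTG
AT1G62780, chr1:23251242-23251271, minus strand: tccttatattgcCACGTGacaaacatgtga
AT2G42975, chr2:17873784-17873813, plus strand: cacgtcacgtcaCACGTGttcgtcacaaac
JAZ3, chr3:6119613-6119642, plus strand: tgcacgacgatgCACGTGcctttttaaccg
AT3G48070, chr3:17750543-17750572, plus strand: agaagtttctcaCACGTGtagatccatcac
SDP1, chr5:1089596-1089625, plus strand: gttttagaaatcCACGTGggaatagcgtaa
AT3G26910, chr3:9918849-9918878, minus strand: ttacgatttcgcCACGTGtattttcatctc
AT4G30780, chr4:14990057-14990086, plus strand: gaagacgagtaaCACGTGgcaaatactcta
AT1G32410, chr1:11693714-11693743, plus strand: gggtttggtacaCACGTGgccgatcatcat
In *XT2* and *SKP2B* both sides are of the ABRE type, gc or ga before the core and tc or gc after it, and in *SKP2B* another box starts 12 bp further downstream. An ABRE-type flank is on 1 side in *RAD23C*, *AT1G62780*, *AT3G26910*, *AT4G30780* and *AT1G32410* and on neither in *AT2G42975*, *JAZ3*, *AT3G48070* and *SDP1*.

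*RAD23C* (AT3G02540), which encodes a Rad23-type protein that binds ubiquitin, had the largest loss, with a log2 fold change of −3.45 and 4 G-boxes. Of these, 1 was centred 21.5 bp inside the gene and the other 3 between 357.5 and 427.5 bp upstream. *XT2* (AT4G02500), a xyloglucan xylosyltransferase of the cell wall, followed with −3.41 and 1 G-box centred 14.5 bp after the TSS. *SKP2B* (AT1G77000), an F-box protein, had −3.16 and 2 G-boxes in the 5′ UTR, at 59.5 and 71.5 bp. *AT1G62780*, annotated as a tRNA methylthiotransferase-like protein, also had −3.16, and its single box was 61.5 bp upstream. In 6 of the 12 the nearest G-box lay within 100 bp before the TSS.

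The next losses belonged to genes of varied function. *AT2G42975*, named after a myosin-like protein, had −3.01, *JAZ3* (AT3G17860), a repressor of jasmonate responses, −2.96, and *AT3G48070*, a RING/U-box protein, −2.95. *SDP1* (AT5G04040), the lipase that starts the breakdown of seed storage oil, had −2.91, and its G-box lay 268.5 bp into the gene, in the 5′ UTR. The last 4 were *AT5G04885* (a glycosyl hydrolase, −2.90), *AT3G26910* (a hydroxyproline-rich glycoprotein, −2.89), *AT4G30780* (annotated as a DNA helicase, −2.86) and *AT1G32410* (a VPS55 protein of vacuolar sorting, −2.85).

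**Figure D1:**
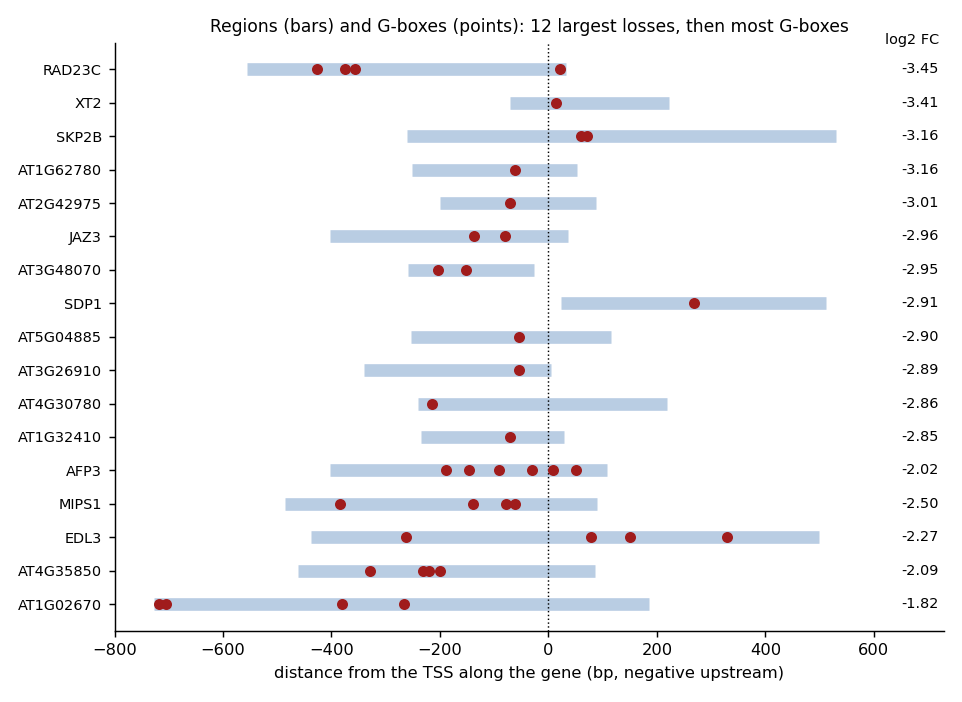
Regions (light bars) and G-box centres (points) by distance from the TSS in bp, negative upstream, for the 12 members with the largest loss and then the members with most G-boxes, with the log2 fold change at the right. Boxes lie on both sides of the TSS, and the region of AFP3 holds 6 of them at intervals from 189.5 bp upstream to 51.5 bp downstream.

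Most members held a single G-box. There was 1 in 391 regions (73.1%), 2 in 116, 3 in 20, 4 in 7 and 6 in 1, which makes 717 boxes in 312.5 kb of sequence, or 2.29 per kb. The 182 distances between neighbouring boxes of the same region had a median of 72 bp, and 68 of them (37.4%) were 50 bp or less. The most frequent was 11 bp, found 9 times, and the shortest 7 bp.

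The promoter with 6 boxes belongs to *AFP3* (AT3G29575), whose family of ABI5-binding proteins restrains abscisic acid responses, with a log2 fold change of −2.02. Among the 7 regions with 4 boxes are *RAD23C*, *MIPS1* (AT4G39800), which makes the inositol phosphate used for phytate (−2.50), *EDL3* (AT3G63060), an F-box protein (−2.27), *AT4G35850*, a pentatricopeptide repeat protein (−2.09), *AT1G02670*, a P-loop hydrolase (−1.82), and *ABI5* (AT2G36270), the bZIP factor that arrests germination in response to abscisic acid (−1.71). The stretches up to the TSS of 4 promoters with 2 or more boxes are shown to let the spacing of the boxes be read, again with the G-boxes in capitals.
AFP3, chr3:11384146-11384347, minus strand: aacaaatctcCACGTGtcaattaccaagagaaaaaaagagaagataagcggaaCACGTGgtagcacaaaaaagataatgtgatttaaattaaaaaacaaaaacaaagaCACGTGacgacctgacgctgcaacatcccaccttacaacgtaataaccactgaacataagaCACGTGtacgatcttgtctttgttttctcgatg
MIPS1, chr4:18472049-18472200, minus strand: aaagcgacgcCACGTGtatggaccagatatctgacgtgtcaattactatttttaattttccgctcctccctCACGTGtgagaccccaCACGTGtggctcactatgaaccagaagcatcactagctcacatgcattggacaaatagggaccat
JAZ3, chr3:6119557-6119706, plus strand: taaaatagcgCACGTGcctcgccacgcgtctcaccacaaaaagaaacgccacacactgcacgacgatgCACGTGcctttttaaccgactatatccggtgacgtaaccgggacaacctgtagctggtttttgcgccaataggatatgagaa
ABI5, chr2:15207637-15207792, minus strand: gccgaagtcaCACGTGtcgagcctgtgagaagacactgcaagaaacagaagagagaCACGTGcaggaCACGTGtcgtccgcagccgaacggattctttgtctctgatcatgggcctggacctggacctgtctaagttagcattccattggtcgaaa
In *ABI5*, 2 boxes are 11 bp apart, start to start, with centres 97.5 and 86.5 bp before the TSS, and in *MIPS1* the 2 nearest are 16 bp apart. The farthest box of *ABI5*, 619.5 bp upstream, and that of *MIPS1*, 383.5 bp upstream, lie outside the stretches shown. The 2 boxes of *JAZ3* lie farther apart, at 137.5 and 79.5 bp upstream. The *AFP3* boxes shown lie at 189.5, 146.5, 91.5 and 30.5 bp upstream, and the other 2 are inside the gene, at 7.5 and 51.5 bp.

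The size of the loss differed little with the number of boxes. The median log2 fold change was −1.84 with 1 box (quartiles −2.15 and −1.51, n = 391), −1.81 with 2 (−2.18 and −1.38, n = 116) and −1.80 with 3 or more (−2.04 and −1.63, n = 28). The widths moved with the count, with medians of 510, 611.5 and 716.5 bp. Over all members the median was −1.83, from −3.45 to −1.001, and 196 (36.6%) fell by more than 4-fold. The 1133 decreased one-strand promoters without a G-box had a median of −1.95 with 46.7% past 4-fold, the 151 divergent promoters with a G-box −2.20 with 62.3%, and the 425 decreased regions with a G-box away from a TSS −1.62 with 18.6%.

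**Figure D2:**
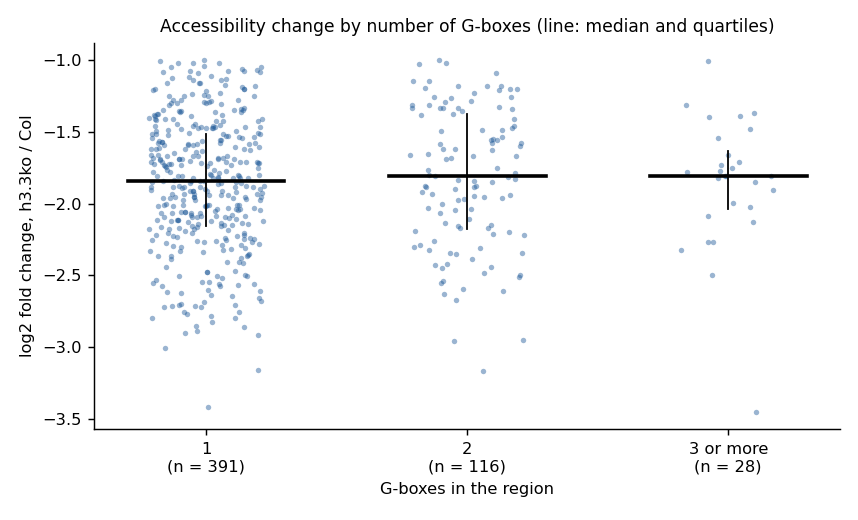
Log2 fold change, h3.3ko relative to Col (vertical axis), for each member (points), by the number of G-boxes in the region, with medians (thick lines) and quartiles (thin lines). The medians lie between −1.84 and −1.80, and the clouds overlap over nearly their whole range.

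At the edges of the rule, the member farthest from its TSS was *AT2G01275*, a RING/FYVE/PHD zinc finger gene, with its midpoint 497.5 bp upstream and a log2 fold change of −1.46. The nearest region with a G-box outside the limit, at AT3G13403, was 500.5 bp into the gene and had −1.98. The weakest change among members was that of *NIMIN-2* (AT3G25882), which encodes a protein that binds the defence regulator NPR1, at −1.001, just past the 2-fold limit of the list.

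The G-boxes gathered just upstream of the TSS. The box nearest the TSS had a median position of 86.5 bp upstream (quartiles 211 bp upstream and 32 bp downstream), 228 of 535 (42.6%, 95% Wilson interval 38.5 to 46.8) lay in the 200 bp before the TSS, and 373 (69.7%) were upstream of it. Of all 717 boxes, 515 were upstream, 159 in a 5′ UTR exon, 30 in coding sequence and 7 in an intron by the gene's first model. Counted per kb of member sequence at each distance, the density peaked at 5.00 per kb between 100 and 50 bp before the TSS, against 1.90 in the 50 bp next to the TSS and 2.74 in the first 50 bp of the gene. Among 20521 unlisted one-strand promoters, which have no region of either list within 500 bp, the density was also highest in that bin, at 0.357 per kb, and was 0.290 in the next one. The higher level in members follows from the rule, and only the shape is compared.

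**Figure D3:**
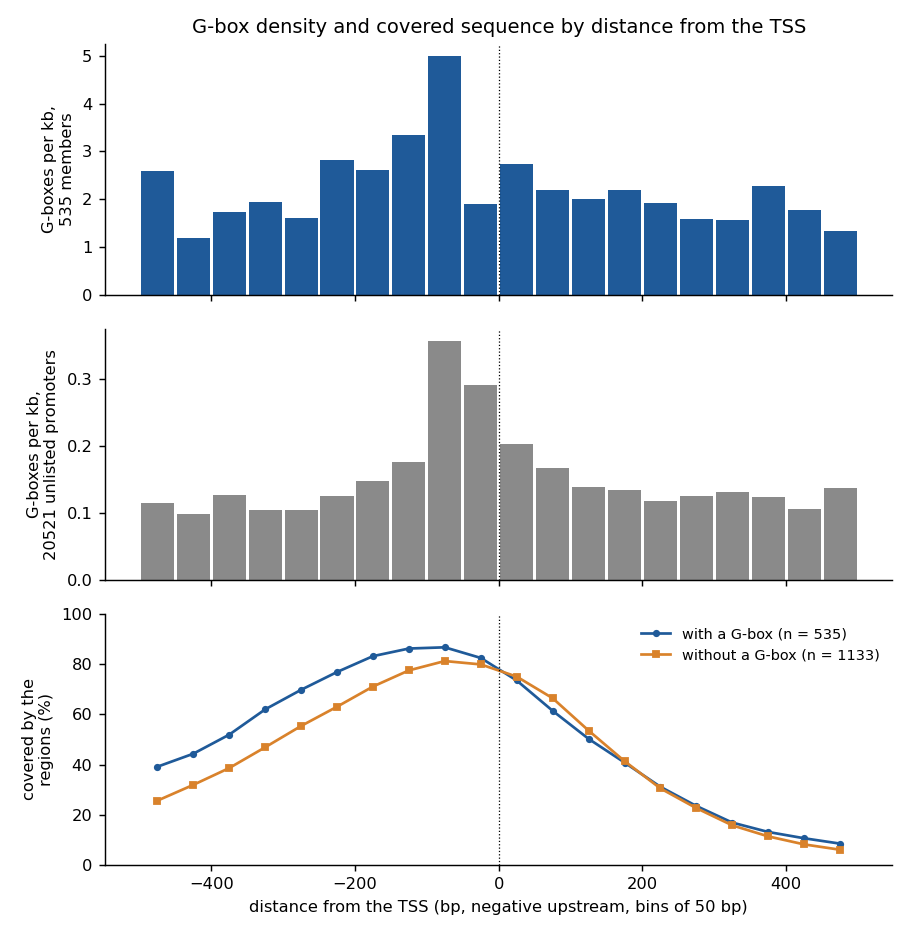
G-boxes per kb in members (top) and in unlisted promoters (middle, other scale), and the share of regions that cover each distance (bottom), by distance from the TSS in bins of 50 bp. Both densities peak 100 to 50 bp before the TSS, and the members' density falls from 5.00 to 1.90 per kb in the bin next to the TSS.

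The regions themselves were long and mostly upstream. Members had a median width of 545 bp (113 to 2085 bp) against 448 bp for decreased one-strand promoters without a G-box, a difference of 97 bp that the rule bears on, since a longer region has more room for a G-box. The TSS lay inside 422 of the members (78.9%). The midpoint was upstream of the TSS in 77.0% of members (412 of 535) and in 69.1% of promoters without a G-box (783 of 1133). The odds ratio was 1.5 (95% interval 1.18 to 1.90). The rule bears on this difference too, since G-boxes are densest upstream of TSSs, so that it is given without a p-value. How much of it the rule makes was not tested. The distance from the TSS to the next gene upstream did not differ detectably, with medians of 1076 and 1070 bp (permutation test, adjusted p = 0.96). GC content outside the G-boxes had medians of 36.3% and 35.8% (permutation test, adjusted p = 0.185). In the 300 bp around the TSS, from 250 bp before it to 50 bp after, the members' median GC was higher by 1.71 percentage points (permutation test, adjusted p = 5.75e-05).

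Within the region, the G-boxes of members lay a median of 40.4% of the way from the midpoint to the edge, against 47.2% in the 397 increased regions that hold a G-box, counting the first box along the chromosome in both. The difference of −6.74 percentage points did not pass the threshold (permutation test with 100000 resamples, adjusted p = 0.0953).

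The flanks of the G-boxes differed from those of G-boxes in unlisted promoters and in increased regions. Of the boxes nearest the TSS, 293 of 535 (54.8%, interval 50.5 to 58.9) had an ABRE-type flank, 231 on 1 side and 62 on both. In unlisted one-strand promoters the share was 1067 of 2671 (39.9%, 38.1 to 41.8), an odds ratio of 1.82 (1.51 to 2.19, Fisher's exact test, adjusted p = 4.52e-09). In increased regions, where the box nearest the region's midpoint was taken, it was 114 of 397 (28.7%, 24.5 to 33.4), an odds ratio of 3.01 (2.28 to 3.96, Fisher's exact test, adjusted p = 3.20e-14). Whether the unlisted promoters were open in Col seeds is not in the lists, so that openness and loss cannot be told apart in the first comparison. The paper finds the increased regions mainly within genes and at their 3′ ends, so that the second comparison also sets promoters against genic sequence. How much of the difference this makes was not tested.

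The ABRE-type share was not shown to differ between one-strand promoters and the other decreased regions. Divergent decreased promoters had it at 77 of 151 G-boxes (51.0%, odds ratio 1.16, 0.81 to 1.67, Fisher's exact test, adjusted p = 0.556), and decreased regions away from any TSS, by the box nearest the midpoint, at 199 of 425 (46.8%, odds ratio 1.38, 1.06 to 1.78, adjusted p = 0.0531). Both comparisons were added after the first results were seen. By chromosome, the odds ratio against unlisted promoters was 1.82, 2.1, 2.32 and 2.13 on chromosomes 1 to 4 and 1.16 on chromosome 5, where 47.8% of 113 members and 44.2% of 582 unlisted promoters had the flank.

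Read outwards from the core, the 2 bases after CACGTG were most often TC in members, on 203 of 1070 sides (19.0%, against 13.4% in unlisted promoters and 8.94% in increased regions). GC followed with 14.2% (10.9% and 8.31%), and then TA with 10.2% (7.53% and 7.56%) and GA with 9.44% (8.11% and 6.68%). The bases AA, at 3.55%, and CA, at 1.12%, were rarer in members than in unlisted promoters, at 7.11% and 3.16%. These single shares were not tested. The median log2 fold change was −1.78 with no ABRE-type side (n = 242), −1.86 with 1 (n = 231) and −1.89 with both (n = 62), and the nearest box was upstream of the TSS in 70.7%, 68.0% and 72.6% of them.

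**Figure D4:**
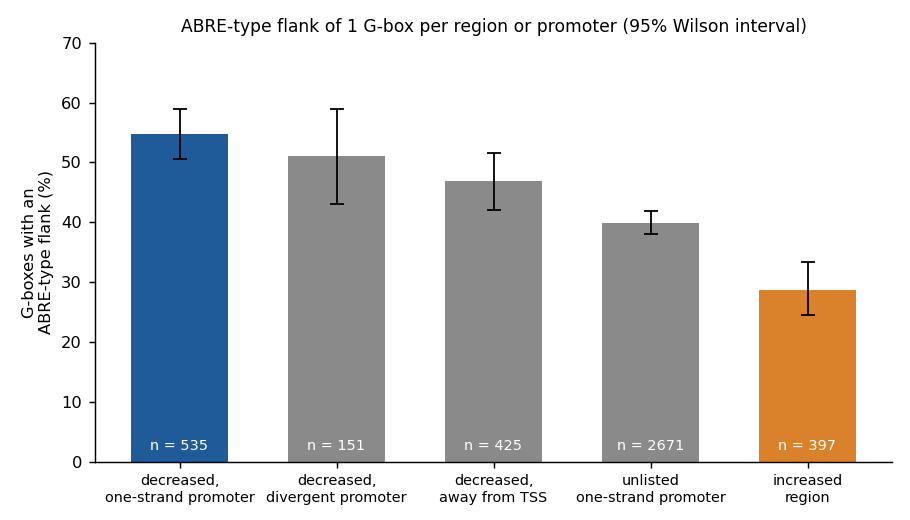
Share of G-boxes with an ABRE-type flank (bars, in percent, with 95% Wilson intervals), counting 1 G-box per region or promoter, with the number of G-boxes in each bar. The 3 kinds of decreased regions lie between 46.8% and 54.8%, above unlisted promoters at 39.9% and increased regions at 28.7%.

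The G-box stood apart from other palindromes of its composition. Of the 24 palindromic hexamers that hold 4 C or G, 1 A and 1 T, as it does, CACGTG was in the most decreased one-strand promoters, 535 of 1668 (32.1%), followed by ACCGGT with 9.83%, GACGTC with 8.45% and ACGCGT with 7.55%. In the increased regions CACGTG was in 11.6%, and CTGCAG was the most frequent of the 24, with 20.9% against 2.82% of decreased one-strand promoters, followed by CAGCTG with 19.1% against 6.29%. In the 300 bp around the TSS, CACGTG was in 20.9% of the genes with decreased one-strand promoters, 7.68% of all protein-coding genes and 5.87% of unlisted one-strand promoters. ACCGGT, the next of the 24 in each of these groups, was in 5.52%, 4.27% and 3.61%. The first rank of CACGTG is thus not particular to decreased promoters. Because the regions were selected with this motif in view, these shares are a description.

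Other motifs near the TSS were searched as exact letters on both strands in the same 300 bp, after every G-box had been masked. Of 14 motifs, ACGTG, the core that ABREs and G-boxes share, was found more often in members, in 205 of 535 (38.3%) against 349 of 1133 promoters without a G-box (30.8%), with an odds ratio of 1.40 (1.13 to 1.73, Fisher's exact test, adjusted p = 0.0121). It was in 21.5% of all protein-coding promoters of that length. TGGGCC, the site II element that TCP factors bind in promoters of growth and ribosomal genes, was less frequent in members, in 22.6% against 29.6% (odds ratio 0.70, 0.55 to 0.88, Fisher's exact test, adjusted p = 0.0124), with 15.4% of all promoters. Over whole regions the odds ratio of TGGGCC was 0.92 (Fisher's exact test, adjusted p = 0.548), and among the 50% of each kind with the largest loss it was 0.70 (adjusted p = 0.0828).

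The other 12 motifs did not pass the threshold in this window, and their share of all protein-coding promoters of that length follows each in brackets. The E-box CACATG was in 17.6% of members and 15.6% of promoters without a G-box (12.9% of all promoters), CGTGTG, which some BZR1-type factors bind, in 10.3% and 7.77% (5.7%), and TGACG, the core bound by TGA factors, in 34.0% and 33.6% (23.0%). CCGAC, the core of the dehydration-responsive element, was in 23.4% and 21.5% (15.0%), and CATGCA, the RY core of B3 factors of seed maturation, in 8.79% and 8.21% (9.69%). TATAAA was in 44.9% and 48.1% (52.1%), AAACCCTA, a telobox, in 2.80% and 4.41% (6.22%), and AAAATATCT, the evening element of the clock, in 4.86% and 3.44% (2.82%). The W-box core TTGAC was in 51.6% and 54.0% (50.3%), CCAAT, the site of NF-Y factors, in 56.6% and 56.2% (51.6%), the I-box GATAAG in 20.2% and 16.8% (14.6%), and the repeat GAGAGA in 31.2% and 27.8% (29.2%). The 12 adjusted p-values lay between 0.209 and 0.957 (Fisher's exact test).

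Among genes of light signalling and the clock, 6 of 18 on the list were members (33.3%, against 1.95% of all protein-coding genes). *LHY* (AT1G01060) and *CCA1* (AT2G46830), the paired morning factors of the clock, had log2 fold changes of −2.60 and −1.69. *PRR9* (AT2G46790), a morning repressor of both, had −2.34, and *RVE8* (AT3G09600), a related factor that activates evening genes, −1.95. *SPA1* (AT2G46340), a partner of the ubiquitin ligase *COP1*, had −2.35 and the photoreceptor gene *PHYB* (AT2G18790) −1.31. *LHY* and *CCA1* have 1 G-box each and *PRR9* has 2, and the box nearest the TSS of each is shown.
LHY, chr1:37934-37963, minus strand: ctacaatatcacCACGTGtcgatctgcgat
CCA1, chr2:19245386-19245415, plus strand: tagtgtatcagaCACGTGtcgacaaactgg
PRR9, chr2:19232423-19232452, plus strand: ttaggttaatgaCACGTGttaaggtggacc
The *LHY* and *CCA1* boxes lie 77.5 and 190.5 bp upstream and match at 5 of the 24 bases beside the core, tcga right after it among them. Over all 142845 pairs of members the median was 6, so that these flanks are no more alike than those of most pairs. *PHYA*, *CRY2*, *TOC1* and *ELF4* on the list also had a decreased one-strand promoter, but with no G-box in the region. A decreased one-strand promoter of either kind was thus at 10 of the 18, against 6.08% of all protein-coding genes. Of these 10, 6 held a G-box, against 32.1% of all decreased one-strand promoters.

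Of 33 genes for factors that themselves bind G-boxes or close variants, 7 were members (21.2%, against 1.95% of all protein-coding genes). They are *GBF1* (AT4G36730, −2.15), *PIF4* (AT2G43010, −2.01), *MYC2* (AT1G32640, −1.94), *BEH2* (AT4G36780, −1.85, with 3 G-boxes), *ABI5* (−1.71, with 4), *BEH3* (AT4G18890, −1.47) and *PIL6* (AT3G59060, −1.47), which is also called *PIF5*. *PIF1*, *HY5*, *HYH*, *ABF3* and *BES1* had decreased one-strand promoters without a G-box. With these, 12 of the 33 had a decreased one-strand promoter of either kind, against 6.08% of all protein-coding genes. A G-box was in 7 of these 12, against 32.1% of all decreased one-strand promoters. In *PIF4* and *PIL6* the G-box lies in the 5′ UTR, at 241.5 and 270.5 bp, with an ABRE-type flank on both sides.
PIF4, chr2:17886328-17886357, plus strand: cccagaacttgcCACGTGtcgttcatttca
PIL6, chr3:21830552-21830581, minus strand: ctgacaattcgcCACGTGtcggtcatcctg
The 24 bases beside these 2 boxes match at 14 positions, while over all 142845 pairs of members the median was 6 and the 95th percentile 10. *BEH2* and *BEH3* match at 12 positions. Gene pairs, *LHY* with *CCA1* included, were chosen for this count after the names were seen, and the others tried (*BTI1*, *BTI2* and *BTI3* among themselves, *CRF3* with *CRF4*, *RDUF1* with *RDUF2* and *PAKRP1* with *KINESIN-12B*) matched at 6 to 9.

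In the core pathway of abscisic acid, 3 of 28 genes were members (10.7%, against 1.95% of all protein-coding genes). *PP2CA* (AT3G11410), a phosphatase that holds the pathway off, had the largest loss of them, −2.70, the receptor gene *PYL7* (AT4G01026) had −1.47 and the kinase gene *SNRK2.3* (AT5G66880) −1.25. Each has 1 G-box, upstream of the TSS and without an ABRE-type flank. Another 6 of the list, among them *ABI3*, *HAB1* and *HAI2*, had a decreased one-strand promoter without a G-box. Such a promoter of either kind was thus at 9 of the 28, against 6.08% of all protein-coding genes. Of these 9, 3 held a G-box, near the 32.1% of all decreased one-strand promoters. Of 16 genes for late seed and dehydration proteins, 2 were members (12.5%, against the same 1.95%), and both had small losses. *GEA6* (AT2G40170), which encodes the late embryogenesis protein *EM6*, had −1.05, and the dehydrin gene *ERD10* (AT1G20450) −1.18.
GEA6, chr2:16780390-16780419, minus strand: aataaagtcagaCACGTGgcatgtcaccaa
ERD10, chr1:7090002-7090031, minus strand: attatttattttCACGTGgcatgatggcta
The *GEA6* box, 36.5 bp before the TSS, has an ABRE-type flank on both sides, and the *ERD10* box, 410.5 bp before it, on 1 side. Another 4 genes of this list had a decreased region at the TSS and were not members. *RD29A* (−1.08) has a one-strand promoter and *RD29B* (−1.32) and *CRU3* (−1.17) divergent ones, all without a G-box in the region, and *PER1* (−1.65) has a G-box at a divergent promoter. The gene lists were drawn up with earlier results of these data known, and their counts are descriptions.

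**Figure D5:**
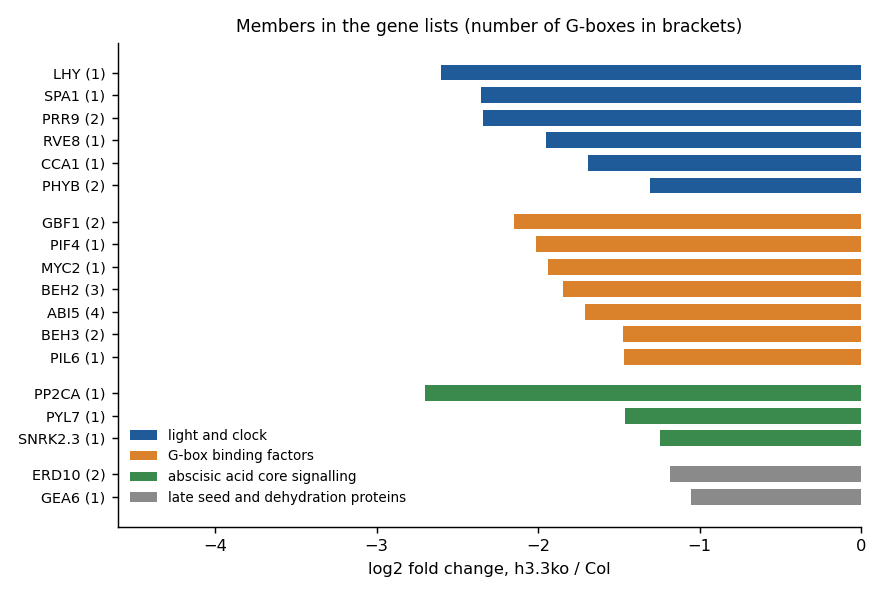
Log2 fold change, h3.3ko relative to Col (bars), for the members in the gene lists, with the number of G-boxes of each region in brackets. The losses run from −2.70 at PP2CA to −1.05 at GEA6, and the late seed proteins have the smallest.

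Over the whole set, the product names were those of many cellular functions. Metabolic enzymes made up 16.3% of members, 15.3% of genes with decreased one-strand promoters without a G-box and 15.5% of all protein-coding genes. Transcription factors and zinc fingers made up 8.04% (43 genes), 7.86% and 5.78%, protein kinases and phosphatases 7.29%, 6.97% and 6.04%, and the ubiquitin system 5.23%, 3.8% and 4.57%. Chaperones and stress proteins made up 2.06% (11 genes), 1.24% and 1.19%, and RNA binding and splicing 1.12% (6 genes), 2.56% and 2.49%. The classes are word matches on product names, and 49.2% of members were left as other, against 46.6% and 52.2%. Among those left there are *GBF1*, *PIF4* and *BEH2*, which are transcription factors, and the F-box gene *SKP2B*. The shares are thus not full counts of each function, and they were not tested.

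By class, the largest losses after those already named were at *SIZ1* (AT5G60410), a SUMO ligase with a zinc finger, with −2.79, *FBS1* (AT1G61340), a stress-induced F-box protein, with −2.82, and *ABCF1* (AT5G60790), of the ABC transporter family, with −2.76. *SHS1* (AT4G32400), a carrier of adenine nucleotides, had −2.75, the kinase gene *AT2G24360* −2.72 and *SSP4b* (AT4G18140), a small phosphatase, −2.71. The chaperone genes with the largest loss were *P58IPK* (AT5G03160), with −2.57, and *AT2G38000*, with −2.41, both of the DnaJ family. Among products with no assigned function, *AT3G08890* had −2.61 and *AT4G02370* −2.36.

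The annotation names a biological process for 242 member genes (45.2%). Of 25 kinds of process counted, the members' share was above that of genes without a G-box and of all genes in 11, below both in 9 and between them in 5, and none of these differences was tested. A process with abscisic acid in its name was given for 6 of them (2.48%), against 5 of 578 genes without a G-box (0.865%) and 0.886% of all genes with a named process. The 6 are *NPX1* (−2.17), *FER2* (−2.08), *AT2G32020* (−2.01), *NAC3* (−2.0), *CBF4* (−1.84) and *COR413IM1* (−1.43), named because they are the whole of that count. Salt or osmotic stress was given for 11 (4.55%, against 3.81% and 2.47%) and water deprivation or desiccation for 5 (2.07%, against 1.04% and 0.816%). Among the other hormones, ethylene was given for 4 (1.65%, against 0.346% and 0.386%), jasmonic acid for 3 (1.24%, against 0.692% and 0.465%), auxin for 3 (1.24%, against 2.25% and 0.930%), and gibberellin and brassinosteroid for 0, against 1.04% and 0.865% of genes without a G-box. A term with germination or dormancy in its words was given for 6 (2.48%, against 2.42% and 2.2%). The same 6 genes made up the count for embryo development. For *SHS1* and *BTS* the matching term was embryo development ending in seed dormancy, which names no germination process. Regulation of transcription was given for 26 (10.7%, against 11.6% and 9.51%). Translation was given for 4 (1.65%, against 5.71% and 4.81%) and light for 3 (1.24%, against 2.94% and 2.03%). For some genes, such as *MYC2*, *LHY* and *PP2CA*, the annotation gives only a number of processes, and for others, such as *ABI5* and *PIF4*, none. No term could match these genes, so that the counts of abscisic acid, jasmonic acid, light and the other terms leave them out.

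Many member genes also gained accessibility elsewhere. An increased region overlapped the gene body or the 1 kb after it in 191 of 535 member genes (35.7%), 381 of 1133 genes of decreased one-strand promoters without a G-box (33.6%) and 16.1% of all protein-coding genes. At *JAZ3* the promoter fell by 2.96 on the log2 scale while the increased region had 3.29. At *SDP1*, which has 2 increased regions, the values were −2.91 and, for the higher of the 2, 3.47. At *PP2CA*, with 1 increased region, they were −2.70 and 3.98. Whether the 2 changes depend on each other was not tested.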

How the data were processed

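ATAC-seq of Col and *h3.3ko* mature seeds was available as the authors' lists of decreased and increased regions, deposited with 1 log2 fold change per region (*h3.3ko* relative to Col). By the paper's methods and the submitters' processing notes, the authors trimmed reads with fastp 0.20.1, aligned to TAIR10 by Bowtie2, discarded organelle reads and, with Picard 2.24.0, duplicates, called MACS2 peaks found in both replicates, merged those of both genotypes and listed regions past 2-fold with a significant adjusted P value. The test and any Tn5 shift are not given in the sources used here. Library depth is unknown from the lists, which hold regions as units; intervals cover counting error only.

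Sequences and genes were read from TAIR10.1 (RefSeq), whose nuclear chromosomes hold every region. The TSS is the end of the gene feature, and for the nearest G-box distance is from the TSS base to the box centre. Two-sided Fisher's exact tests served for shares (Wilson and Woolf 95% intervals) and two-sided permutation tests with 100000 resamples for medians. Adjusted p is Benjamini-Hochberg over the 23 tests, those of region width and midpoint position included, with 0.05 as the threshold. Members and lists were chosen with earlier results of these data known. Genes named are the 12 members with the largest loss, the 6 with most G-boxes, the one nearest inside 500 bp, those in the gene lists and the 2 with the largest loss in each product class of 10 or more members; others are marked as chosen later. Product classes are word matches, of which some were corrected after false matches were seen. Alternatives covered the TSS distance, the gene set, the window, G-box choice, region width and the size of the change. Python 3.11.15, numpy 2.4.6 and scipy 1.17.1 were used, and functions were tested on simulated data. The 8 libraries of other conditions were not analysed here. The sequence of 1 G-box among the largest losses is not reported here.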

Additional observations from a re-analysis of the deposited data

How the results depend on the processing

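The number of members was 422 with a TSS limit of 250 bp, 590 with 1000 bp and 554 with the TSSs of all genes other than pseudogenes. It was 305 when the G-box had to lie in the central 200 bp of the region and 196 when the change had to exceed 4-fold. The ABRE-type flank stayed past the threshold in every alternative run, with odds ratios of 1.61 to 2.18 against unlisted promoters and 2.70 to 5.55 against increased regions. The highest of each, 2.18 and 5.55, came from the 50% with the largest fold change, a cut on the values that chose the regions. GC content outside the G-boxes passed the threshold only in the 300 bp around the TSS (a difference of 1.71 percentage points). Of the 14 motifs, 2 passed (1 higher and 1 lower) in the 300 bp window and in the upstream 250 bp, 2 (both higher) among the 50% with the largest loss, and 7 (6 higher, 1 lower) over whole regions, where members are also wider. In each alternative the 14 p-values were replaced together before adjustment. For single motifs, 26 of 42 alternatives kept direction and side of the threshold, 7 gained the threshold and 2 lost it, both for TGGGCC. In the other 7, none past the threshold, the odds ratio crossed 1, to 1.21 (TATAAA), 1.21 (TTGAC) and 0.96 (GAGAGA) over whole regions, 0.92 (CCAAT) and 0.99 (AAAATATCT) in the upstream 250 bp, and 0.95 (CCAAT) and 0.99 (TGACG) among the 50% with the largest loss. The difference in distance to the upstream gene was −45.5 bp with protein-coding genes only, against 6 bp, and passed the threshold in neither. No paired analysis was possible because the lists hold no value per replicate, and for the same reason no library could be left out. The limits are that units are regions, which neighbours may share, that exact letters stand in for binding, that the TSS is the annotated end of the gene, and that no value shows how open a promoter was in Col.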
